A study of Mus musculus with 12 samples.

Results

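The members described here are 9 genes for factors of nonsense-mediated mRNA decay, namely Upf1, Upf2, Upf3a, Upf3b, Smg1, Smg5, Smg6, Smg8 and Smg9. They were chosen by name, as the UPF and SMG factors whose symbol stands in both tables of gene values, and all 9 were found among 24533 gene symbols. The study sequenced rRNA-depleted total RNA of bone marrow from C57BL/6 mice in 12 libraries, with 3 in each of 4 groups. The groups were lineage-negative marrow cells (LinNeg) with the genotype WT, the same cells with the genotype U2af1KO, and LSK cells (lineage-negative cells that carry Sca-1 and c-Kit, the fraction with the stem cells) with either genotype. U2af1 encodes the small subunit of the factor that recognises the 3′ splice site. The LSK samples also bear the unexplained label BMT. The labels used here give no age of the animals, no driver of the deletion and no statement on whether a group's libraries stem from separate animals, so p-values measure the spread between libraries, which may be technical.

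Nonsense-mediated decay removes mRNAs on which a ribosome stops too early, including those that carry a premature stop codon after faulty splicing. UPF1, an RNA helicase, is phosphorylated by the kinase SMG1 after UPF2 and UPF3 proteins link it to an exon junction complex downstream of the stop. SMG8 and SMG9 hold the kinase in check, SMG6 cuts the mRNA near the stop codon, and SMG5 helps to bring in deadenylation and decapping. Several of the mRNAs that encode these factors are known to be substrates of the same decay.

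The values are those of the authors' DESeq2 comparisons of KO with WT in each population. Values of single libraries were not analysed here, so the depth per library is unknown, and group means were derived from the authors' mean of normalized counts and fold change. A gene is called when the authors' adjusted p is under 0.05, and all fold changes are KO over WT on the log2 scale, with the standard error written as SE. U2af1 itself had a log2 fold change of 0.65 (SE 0.19, adjusted p = 0.00293) in LinNeg and 0.61 (SE 0.06, adjusted p = 1.72e-25) in LSK in the authors' deposited table, that is, it was higher under the KO label. The values per gene thus show no loss of U2af1 RNA under the KO label. They would include reads of any exon that a deletion leaves in place, so they check no label. Values per exon were not analysed, and the cause of the rise was not tested. Several marker lists moved with the genotype label. In LinNeg all 6 erythroid markers were higher (derived sum 12319 in WT, 55745 in KO), all 6 tested neutrophil markers lower (82367 and 3939) and all 6 monocyte and dendritic markers lower (49036 and 718). In LSK all 7 stem cell markers were lower (81760 and 24834), the gate genes Kit and Ly6a among them, and all 6 erythroid and 7 neutrophil markers higher. Megakaryocyte markers were lower in 4 of 4 in each population, and neural transcripts higher in 3 of 4 in LinNeg and in 4 of 4 in LSK (derived sum 10.4 and 1684). Of the B cell markers 1 of 4 was lower in each population, and of the T and NK markers 0 of 4 were called in LSK. In LinNeg 1 of 3 tested T and NK markers was higher (Cd3g) and 1 lower (Nkg7). Stem cell markers in LinNeg went both ways, with 2 of 7 higher (Ly6a and Mecom) and 2 lower (Cd34 and Meis1). Of 3 mast cell markers Cma1 and Tpsb2 were higher in both populations, and Cpa3 was lower in LinNeg only. In LSK 2 of 6 monocyte and dendritic markers were lower. Of these lists no marker was listed at 0. Transcripts of the seminal vesicle were higher in LinNeg KO in 4 of 4 (derived sum 269 in WT and 175000 in KO, SE 1.73 for Svs2). All 4 were listed at 0 in LSK. The Y-linked Ddx3y, Eif2s3y, Uty and Kdm5d fell in LSK KO in 4 of 4 (Ddx3y 2949 in WT and 4.99 in KO) while Xist rose (347 and 62360). Sex and the genotype label thus cannot be told apart in any LSK value. In LinNeg Xist also rose (40.0 in WT and 41468 in KO, SE 1.81). There 0 of the 4 Y-linked genes were called, with SE from 1.45 (Eif2s3y) to 1.99 (Uty). The sexes of the LinNeg groups are thus not shown to match. The part of these shifts in the values of the decay factors was not tested, and in bulk RNA fewer cells of a type and less RNA per cell cannot be told apart.

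In LSK cells most decay factors changed, and by small amounts. Smg8, Upf1, Upf3b, Upf3a, Smg5 and Smg9 rose, Smg1 and Smg6 fell, and Upf2 was not called (-0.02, SE 0.06, in the authors' deposited table). Thus 8 of 9 members (88.9%) were called, where 61.6% of the 16482 genes tested were called. The 6 rises stand beside 32.4% of genes called higher, and the 2 falls beside 29.2% called lower. In LinNeg cells Upf1 and Smg5 rose, Smg6 fell and 6 members were not called. The 3 calls (33.3% of the members) stand beside 41.4% of 17108 genes called, 22.1% higher and 19.3% lower. The rises of Upf1 and Smg5 in LinNeg were lost when fold changes were centred on the median gene, which stood at 0.16 in that table, and the fall of Smg6 was not. With centring on the median of genes with a mean of at least 100 (-0.02) all 3 LinNeg calls stood. With either centring LSK had 6 calls, without Upf3a and Smg9.

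**Figure D1:**
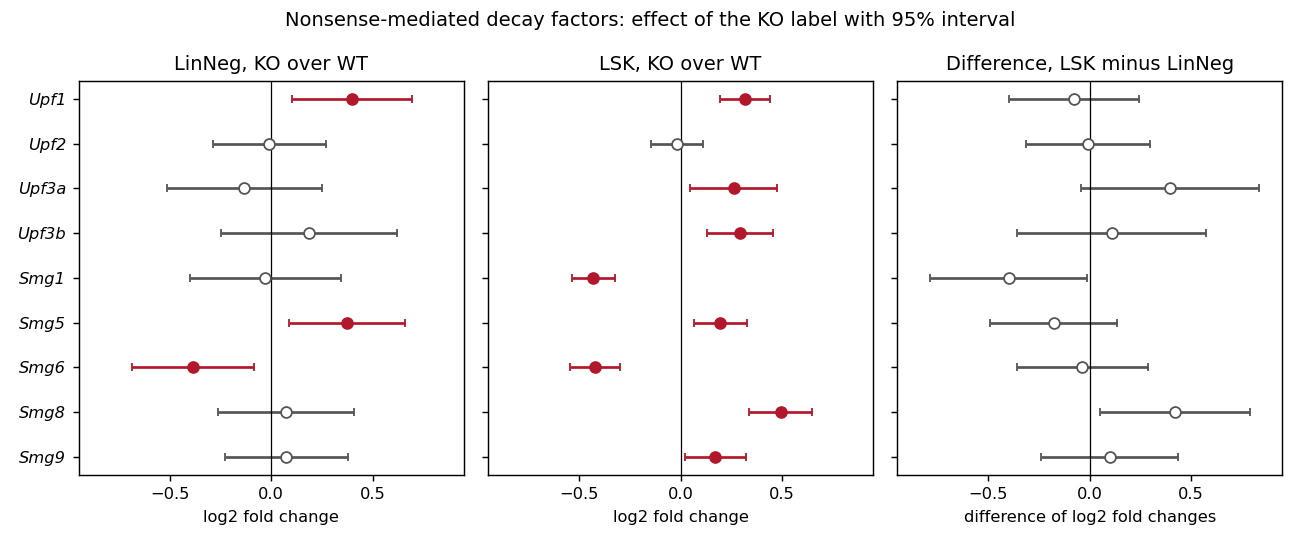
Points are the log2 fold changes of the 9 decay factors, KO over WT, in LinNeg (left) and LSK (middle) and the difference of these effects (right), with 95% intervals as bars. Filled red points have an adjusted p under 0.05, 3 in LinNeg, 8 in LSK and 0 in the difference, and the bars are wider in LinNeg.

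No member changed by as much as 0.5 on the log2 scale in either population, a size that 61.5% of genes tested in LinNeg and 58.6% of those tested in LSK reached. The median size of the members' log2 fold changes was 0.13 in LinNeg and 0.29 in LSK, against 0.71 and 0.64 over all genes tested. The signed median of the members was 0.07 in LinNeg and 0.20 in LSK, beside 0.16 and 0.04 over all genes. The members' standard errors in LSK ran from 0.05 to 0.11, with a median of 0.07 against 0.13 over all genes, and in LinNeg from 0.14 to 0.22. Each member's standard error was 1.78 to 3.60 times larger in LinNeg. From these errors and the smallest Wald statistic called in each table, the smallest log2 fold change that could have been called for Smg1 was 0.44 in LinNeg and 0.11 in LSK, and for Smg8 0.39 and 0.17. The LSK change of Smg8 (0.49) thus exceeded its LinNeg limit, as that of Smg6 (-0.42 against a limit of 0.35) did, while that of Smg1 (-0.43) did not.

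**Figure D2:**
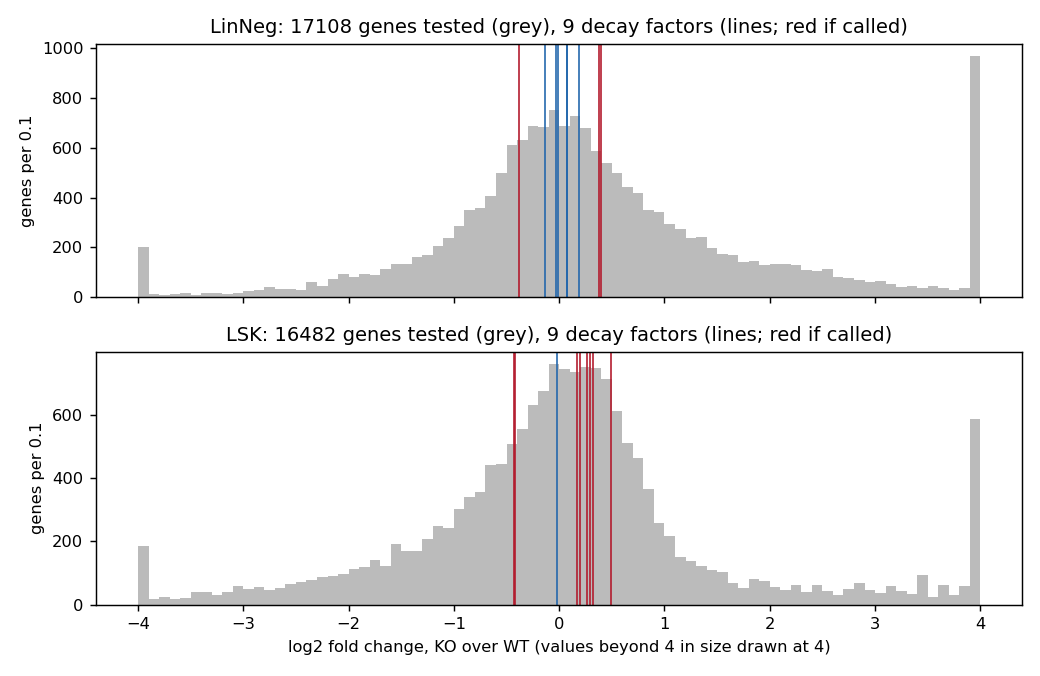
Grey bars count the genes tested in each population by log2 fold change, KO over WT, in steps of 0.1, and vertical lines mark the 9 decay factors (red if called, blue if not). All 9 lines lie within 0.5 of 0 in both panels, in the central part of the distribution.

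Upf1, the helicase at the centre of the pathway, was called higher in both populations as deposited. The LinNeg call was lost with centring on the median gene (0.24, adjusted p = 0.193 from DESeq2 estimates). It stood with centring on genes with a mean of at least 100 (0.42, adjusted p = 0.0167 from DESeq2 estimates). Its derived mean in LinNeg was 6302 normalized counts in WT and 8310 in KO, and in LSK 8371 and 10447. In the authors' deposited table its log2 fold change was 0.40 in LinNeg (SE 0.15, adjusted p = 0.0227) and 0.32 in LSK (SE 0.06, adjusted p = 1.22e-06). This is a rise of 31.9% in LinNeg and 24.8% in LSK. Upf1 was also the most abundant member per length. With 1582 normalized counts per kb of annotated exon in LinNeg it lay above 95.4% of the 16641 tested genes with an exon length. With 2037 per kb in LSK it lay above 96.6% of 16027 such genes. The gene (ENSMUSG00000058301.8) is annotated in mm10 on the minus strand of chromosome 8, from 70331525 to 70353278, with 24 merged exons. Its exons share 68 bases with Cers1 and 63 with Gdf1 on the opposite strand, 1.47% and 1.36% of its exonic length, and whether reads were counted by strand is not given in the sources used here. The sequence before its start is shown because it was the helicase and was called higher in both tables as deposited. It covers the 200 bases from 250 to 51 bases before the RefSeq start (chr8:70353330-70353529, minus strand, GRCm38.p6), with motif matches in capitals.
Upf1: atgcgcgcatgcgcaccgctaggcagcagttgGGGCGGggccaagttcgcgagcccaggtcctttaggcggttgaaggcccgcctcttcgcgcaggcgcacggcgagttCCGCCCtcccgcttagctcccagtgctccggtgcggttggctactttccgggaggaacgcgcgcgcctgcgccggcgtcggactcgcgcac
The capitals mark 2 GC boxes (GGGCGG), a motif that 24.6% of 32851 such windows of RefSeq genes hold. This window is 71% G or C, beside a median of 51.5% over all windows, and 5 of the 9 members' windows hold a GC box. Both strands were searched, as for each motif named here. A match of letters says nothing about binding in these cells.

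Upf2, the adaptor between UPF1 and UPF3 proteins, differed by less than its error in both tables. Its derived means were 2603 in WT and 2586 in KO in LinNeg, and 2876 and 2841 in LSK. The authors' deposited table gave it -0.01 in LinNeg (SE 0.14, adjusted p = 0.968) and -0.02 in LSK (SE 0.06, adjusted p = 0.830). The 95% interval in LSK ran from -0.15 to 0.11. It did not reach the log2 fold changes of Smg1 (-0.43), Smg6 (-0.42) or Smg8 (0.49) there. Because Upf1 rose, the ratio of Upf1 to Upf2 levels per kb of exon went from 2.87 in WT to 3.81 in KO in LinNeg and from 3.45 to 4.36 in LSK. Such ratios of derived means carry no error and were not tested. Upf2 (ENSMUSG00000043241.14) lies on chromosome 2 from 5951469 to 6056703, plus strand.

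The UPF3 paralogs bridge UPF2 and the exon junction complex. Upf3b, the X-linked copy, had derived means of 965 in WT and 1099 in KO in LinNeg and of 1152 and 1413 in LSK. The authors' deposited table gave Upf3b 0.19 in LinNeg (SE 0.22, adjusted p = 0.536) and 0.29 in LSK (SE 0.08, adjusted p = 0.000861). It was thus called in LSK only, with the larger error in LinNeg, and the difference between the effects was 0.11 (SE 0.24). Upf3a, the autosomal copy, had derived means of 832 in WT and 759 in KO in LinNeg and of 550 and 660 in LSK. In the authors' deposited table its log2 fold change was -0.13 in LinNeg (SE 0.20, adjusted p = 0.628) and 0.26 in LSK (SE 0.11, adjusted p = 0.0294). The LSK call of Upf3a was lost with fold changes centred on the median gene, at a log2 fold change of 0.22 (adjusted p = 0.0719 from DESeq2 estimates). Upf3a was the only member whose sign differed between the tables as deposited, while with centring on the median gene the signs of Smg8 and Smg9 differed too, and with centring on genes with a mean of at least 100 that of Upf2. It was also the scarcest per length, with 136 normalized counts per kb in LinNeg and 103 in LSK, below Upf3b at 258 and 321. The ratio of Upf3b to Upf3a per kb was 1.70 in WT and 2.12 in KO in LinNeg, and 3.07 and 3.14 in LSK. Xist and the Y-linked genes moved with the label in LSK, and Upf3b lies on the X chromosome (37091678 to 37110322, minus strand). Of 565 X-linked genes tested in LSK 26.4% were called higher, with a median of -0.04, against 32.9% of autosomal genes with a median of 0.05. The part of sex in the rise of Upf3b was not tested, and sex and genotype cannot be told apart in any LSK value, X-linked or autosomal. Upf3a lies on chromosome 8 from 13785615 to 13799193, plus strand.

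**Figure D3:**
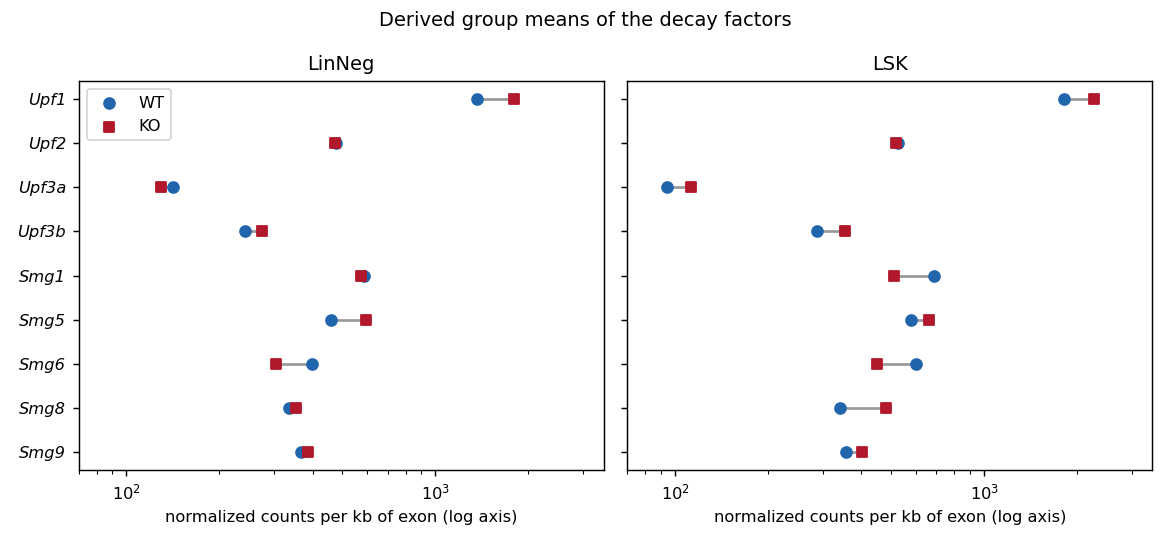
Derived group means per kb of annotated exon are drawn on a log axis for WT (blue circles) and KO (red squares) in LinNeg and LSK, without error bars because values per library were not used. Upf1 lies highest and Upf3a lowest in both panels, and in LSK the Smg1 and Smg8 means lie closer together in KO than in WT.

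In the kinase complex of LSK cells the transcript of the catalytic subunit fell and those of both regulatory subunits rose. Smg1, the kinase that phosphorylates UPF1, had derived means in LSK of 16521 in WT and 12271 in KO. The authors' deposited table gave it a log2 fold change of -0.43 (SE 0.05, adjusted p = 2.76e-15), the largest fall among the members, next to that of Smg6. Smg8, a subunit that restrains the kinase, had derived means in LSK of 1100 in WT and 1549 in KO. Its log2 fold change in the authors' deposited table was 0.49 (SE 0.08, adjusted p = 2.57e-09), the largest rise. Smg9, the partner of SMG8, was at 1318 and 1485, with 0.17 (SE 0.08, adjusted p = 0.0425) in the authors' deposited table, a call lost with centred fold changes (adjusted p = 0.136). Per kb of exon the ratio of Smg1 to Smg8 was 2.01 in WT and 1.06 in KO in LSK. The ratio of Smg1 to Smg9 went from 1.93 to 1.28.

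None of the 3 kinase complex members was called in LinNeg. Smg1 had derived means there of 14078 in WT and 13796 in KO, Smg8 of 1079 and 1135, and Smg9 of 1362 and 1432. The authors' deposited table gave them -0.03 (SE 0.19), 0.07 (SE 0.17) and 0.07 (SE 0.15), with adjusted p of 0.921, 0.768 and 0.743. The ratio of Smg1 to Smg8 per kb was 1.75 in WT and 1.63 in KO. Smg1 (ENSMUSG00000030655.15) lies on chromosome 7 from 118131308 to 118243670, minus strand, with 65 merged exons, and Smg8 (ENSMUSG00000020495.13) on chromosome 11 from 87077732 to 87086774, minus strand, with 4. Smg9 lies on chromosome 7 from 24399619 to 24422778, plus strand, with 14. The windows before the starts of Smg1 (chr7:118243688-118243887, minus strand) and Smg8 (chr11:87086828-87087027, minus strand) are shown because these were the largest fall and the largest rise in LSK.
Smg1: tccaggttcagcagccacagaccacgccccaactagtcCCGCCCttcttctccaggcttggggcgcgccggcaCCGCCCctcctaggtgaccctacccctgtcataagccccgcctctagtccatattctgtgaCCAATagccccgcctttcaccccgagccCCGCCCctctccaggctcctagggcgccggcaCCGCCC
Smg8: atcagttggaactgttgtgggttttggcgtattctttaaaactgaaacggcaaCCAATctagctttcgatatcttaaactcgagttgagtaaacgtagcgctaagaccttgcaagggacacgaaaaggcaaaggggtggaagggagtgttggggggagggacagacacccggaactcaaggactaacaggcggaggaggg
The Smg1 window holds 4 GC boxes (GGGCGG or its reverse complement) and a CCAAT box, in capitals, and 67.5% G or C. The Smg8 window holds a CCAAT box, which 28.4% of all windows hold, no GC box and 49.5% G or C, beside a median of 51.5% over all windows.

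Of the effectors, the endonuclease gene Smg6 fell and Smg5, for an adaptor to deadenylation and decapping, rose in both populations. Smg6 had derived means of 3366 in WT and 2576 in KO in LinNeg and of 5085 and 3793 in LSK. The authors' deposited table gave Smg6 -0.39 in LinNeg (SE 0.15, adjusted p = 0.0308) and -0.42 in LSK (SE 0.06, adjusted p = 5.57e-11), that is, falls of 23.5% and 25.4%. Smg5 had derived means of 3198 in WT and 4144 in KO in LinNeg and of 4023 and 4611 in LSK. In the authors' deposited table Smg5 was at 0.37 in LinNeg (SE 0.15, adjusted p = 0.0271) and at 0.20 in LSK (SE 0.07, adjusted p = 0.00625). Its LinNeg call was lost with centring on the median gene (0.22, adjusted p = 0.229 from DESeq2 estimates). It stood with centring on genes with a mean of at least 100 (0.39, adjusted p = 0.0199 from DESeq2 estimates). The ratio of Smg5 to Smg6 per kb was 1.15 in WT and 1.95 in KO in LinNeg, and 0.962 and 1.48 in LSK. Smg6 (ENSMUSG00000038290.15) lies on chromosome 11 from 74925823 to 75164448, plus strand, and Smg5 (ENSMUSG00000001415.10) on chromosome 3 from 88336260 to 88362338, plus strand. Smg6 shares 126 exonic bases (1.49%) with Srr on the opposite strand. Their windows (Smg5 chr3:88336010-88336209 and Smg6 chr11:74925604-74925803, plus strand) are shown because Smg5 was called higher and Smg6 lower in both tables.
Smg5: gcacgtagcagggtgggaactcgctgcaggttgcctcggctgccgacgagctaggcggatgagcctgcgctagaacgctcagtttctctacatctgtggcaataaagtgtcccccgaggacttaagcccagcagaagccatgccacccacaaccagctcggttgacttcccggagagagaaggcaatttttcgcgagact
Smg6: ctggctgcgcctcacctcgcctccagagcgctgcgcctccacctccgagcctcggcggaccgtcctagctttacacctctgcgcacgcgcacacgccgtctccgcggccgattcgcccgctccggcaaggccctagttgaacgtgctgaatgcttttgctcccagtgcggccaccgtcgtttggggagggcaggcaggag
Neither window holds any of the 6 motifs searched. Besides those above these were the E-box (CACGTG), held by 4.34% of all windows, the TATA box (TATAAA), held by 9.14%, an ETS motif (CCGGAAGT), held by 1.40%, and the cyclic AMP response element (TGACGTCA), held by 0.828%. None of the 9 members' windows holds any of these 4. The windows end 51 bases before the start, so the bases nearer to it, where a TATA box usually lies, were not searched. Absence from a window thus does not show that a gene lacks a TATA box.

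The difference between the populations was tested for each gene as the LSK minus the LinNeg effect over their joint standard error, with a two-sided normal test on the authors' DESeq2 estimates adjusted over 15735 genes. No member passed, where 31.9% of genes did (17.4% higher and 14.5% lower in LSK), and 2 members had an unadjusted p under 0.05. For Smg8 the difference was 0.42 (SE 0.19, adjusted p = 0.0724 from DESeq2 estimates), with a 95% interval from 0.05 to 0.79. For Smg1 it was -0.40 (SE 0.20, adjusted p = 0.111 from DESeq2 estimates), with an interval from -0.79 to -0.01. For Upf3a it was 0.39 (SE 0.22), with an interval from -0.05 to 0.83. In these 3 genes the LSK estimate lay outside the 95% interval of the LinNeg estimate, and in the other 6 inside it. Differences of Upf1 (interval -0.40 to 0.24), Smg5 (-0.49 to 0.14), Smg6 (-0.36 to 0.29), Upf2 (-0.32 to 0.30), Upf3b (-0.36 to 0.57) and Smg9 (-0.24 to 0.44) were not detectable at this precision. With fold changes centred on the median gene of each table Smg8 passed (0.53, adjusted p = 0.0160 from DESeq2 estimates), and with centring on genes with a mean of at least 100 it did not (0.37, adjusted p = 0.123). The LSK samples bear the label BMT, and the Y-linked Ddx3y was at -9.21 (SE 0.38) in LSK and -0.79 (SE 1.64) in LinNeg. Population, that label and sex cannot be told apart in these differences.

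Per length, the order of the members in LSK WT cells ran from Upf1 at 1813 normalized counts per kb of annotated exon through Smg1 (689), Smg6 (602), Smg5 (578), Upf2 (525), Smg9 (356), Smg8 (342) and Upf3b (288) to Upf3a (93.9). In LSK KO cells it ran Upf1 (2262), Smg5 (663), Upf2 (519), Smg1 (512), Smg8 (481), Smg6 (449), Smg9 (401), Upf3b (353) and Upf3a (113). In LinNeg WT cells it ran Upf1 (1365), Smg1 (587), Upf2 (475), Smg5 (460), Smg6 (398), Smg9 (368), Smg8 (335), Upf3b (241) and Upf3a (142). In LinNeg KO cells it ran Upf1 (1799), Smg5 (596), Smg1 (575), Upf2 (472), Smg9 (387), Smg8 (353), Smg6 (305), Upf3b (275) and Upf3a (129). Upf1 was highest and Upf3b and Upf3a lowest in all 4 groups, while the places between lie close together and their spread over libraries was not analysed here. Each table has its own normalization, and no level is compared between populations. The lengths are those of all annotated exons merged (24.0 kb for Smg1), which may exceed what these cells use.

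Other genes of the pathway were counted in 6 lists of 70 genes, written with results of these data known. Among 47 genes for other factors and enzymes 14 rose, 5 fell and 28 were not called in LinNeg, and 22 rose, 10 fell and 15 were not called in LSK. Over all genes tested 22.1% were called higher and 19.3% lower in LinNeg, and 32.4% and 29.2% in LSK, and the counts of each list below stand beside these shares. Their medians were 0.14 and 0.09, beside 0.16 and 0.04 over all genes.

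Exon junction complex genes, which mark spliced junctions on the mRNA, rose in 4 of 10 in LinNeg (median 0.38) and 7 of 10 in LSK (median 0.52), and none fell, where 22.1% and 32.4% of all genes were called higher. The authors' deposited table gave the core helicase Eif4a3 0.48 (SE 0.20, adjusted p = 0.0376) in LinNeg and 0.65 (SE 0.05, adjusted p = 1.88e-35) in LSK. Its partner Magoh was at 0.33 (SE 0.23, not called) and 0.83 (SE 0.08, adjusted p = 3.55e-26) in the authors' deposited table. Rnps1, a peripheral component, was at 0.64 and 0.51, and Cwc22, which loads EIF4A3 onto the spliceosome, at 0.47 and 0.52, called in both tables of the authors' deposited values. The LinNeg calls of Eif4a3 and Cwc22 were lost with centring on the median of all genes and stood with centring on genes with a mean of at least 100.

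Of 10 other surveillance and termination genes 5 rose and 0 fell in LinNeg (median 0.48), and 5 rose and 2 fell in LSK (median 0.13). The release factor genes Etf1 and Gspt1 were at 0.69 and 0.97 in LinNeg and at 0.97 and 0.57 in LSK in the authors' deposited table, each called. Ruvbl2, an ATPase that acts with the SMG1 kinase, was at 0.94 and 0.83 in the authors' deposited table, called in both. Mov10, a helicase that binds UPF1, was at 0.28 (SE 0.27, not called) in LinNeg and fell by 0.93 (SE 0.07) in LSK, where Gspt2 fell by 0.57, in the authors' deposited table. Nbas rose in LinNeg at 0.82 and stood at 0.09 in LSK, not called, in the authors' deposited table.

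Cap-binding and early translation genes rose in 3 of 6 in LinNeg (median 0.32) and 4 of 6 in LSK (median 0.38), with 1 fall in LSK. Ncbp1, the large subunit of the nuclear cap-binding complex, was at 0.72 and 0.70, and the scaffold Eif4g1 at 1.07 and 0.72, called in both of the authors' deposited tables. Ctif, which couples the nuclear cap-binding complex to translation, was at -0.66 (SE 0.42, not called) in LinNeg and -1.52 (SE 0.16, adjusted p = 2.39e-21) in LSK in the authors' deposited table.

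Deadenylation, decapping and exonuclease genes rose in 2 and fell in 5 of 21 in LinNeg (median 0.01) and rose in 6 and fell in 7 in LSK (median 0.01). The deadenylase subunit Pan3 was at -0.46 and -0.59, Cnot8 at -0.63 and -0.19 and the decapping activator Patl1 at -0.73 and -0.26 in LinNeg and LSK in the authors' deposited table, each called. Wdr61, of the SKI complex, was at 0.75 and 0.68, called in both, and Ttc37 of the same complex at 0.54 (called) and 0.01 (not called) in the authors' deposited table. Cnot6l was at 0.22 in LinNeg (not called) and -0.83 in LSK in the authors' deposited table.

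Transcripts known as decay substrates moved unevenly. Of 12 that host no snoRNA 1 rose and 1 fell in LinNeg (median 0.08), and 6 rose and 4 fell in LSK (median 0.32), where 41.4% and 61.6% of all genes were called in either direction. Atf4, a stress transcription factor, was at 0.71 (SE 0.16) and 0.67 (SE 0.05), and the kinase gene Map3k14 at -1.08 (SE 0.27) and -1.73 (SE 0.14), called in both of the authors' deposited tables. Gadd45a was at 0.44 (SE 0.26, not called) and 1.45 (SE 0.14, adjusted p = 1.76e-24), and Ern1, a sensor of unfolded proteins, at -0.45 (not called) and -0.67 in the authors' deposited table. With centring on the median gene Ern1 was called in LinNeg too (-0.61, adjusted p = 0.0135 from DESeq2 estimates), and with centring on genes with a mean of at least 100 it was not (-0.43, adjusted p = 0.0921). Of 11 snoRNA host transcripts 8 rose and 0 fell in LinNeg (median 1.26), and 10 rose and 0 fell in LSK (median 0.73). Snhg3 was at 1.76 and 1.75, and Snhg5 at 1.36 and 1.17, in the authors' deposited table. Snhg1 was at 1.27 and 0.84 in the authors' deposited table.

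**Figure D4:**
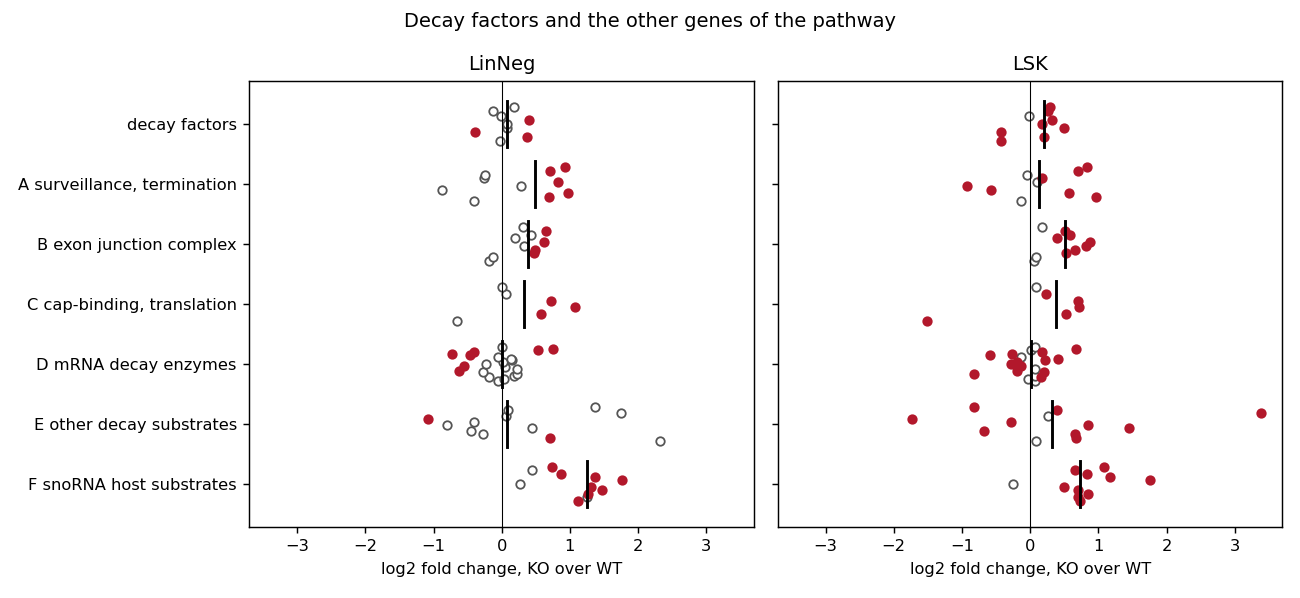
Each point is a gene, placed by its log2 fold change, KO over WT, in LinNeg (left) and LSK (right), with the 9 decay factors in the top row and 6 lists of other pathway genes below. Filled red points were called, open points were not and black bars are medians, and the snoRNA host list lies furthest to the right in both panels.

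The 3 genes of the lists nearest to the members' median in the plane of the LinNeg and LSK log2 fold changes (0.07 and 0.20), out of 70 ranked, were Ncbp2, Nat9 and Edc4. Their distances were 0.03, 0.06 and 0.08 on the log2 scale. The authors' deposited table gave Ncbp2, the small cap-binding subunit, 0.06 in LinNeg and 0.23 in LSK, Nat9 0.06 and 0.26, and Edc4, a decapping scaffold, 0.15 and 0.22. With 2 comparisons only, this likeness is a description of 2 values per gene.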

How the data were processed

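RNA of 12 libraries was compared by the authors between KO and WT in LinNeg and, separately, in LSK. HISAT2, SAMtools 1.10, StringTie, DESeq2 and the build mm10 are named in the submitters' processing notes, and the counting program, annotation and strand setting were not given in the sources used here. Per the file headers, the deposited values per gene are the mean of normalized counts (a signal on a linear scale), the log2 fold change with its standard error, the Wald statistic (a score), the p-value and the adjusted p-value. Each table had 24542 rows, of which 5 name no gene and 4 repeat a symbol, and these were left out. Reads assigned to no feature were 38.0% (LinNeg) and 26.4% (LSK) of the summed means. The fold changes equal statistic times standard error within 0.005 of the deposited log2 values and were not shrunken, so that product was used.

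The tables hold comparisons and not counts per library, so the authors' DESeq2 tests were used as deposited. Means per genotype follow from the overall mean and the fold, with 3 libraries on each side. The test of the difference was tested on simulated data. Genes named were the members, U2af1, up to 2 higher and 2 lower per list and table by adjusted p, and the 3 nearest to the members' median. The members and lists were chosen with earlier results of these data known, and 1 gene planned for the lists was left out of them and is not reported here. Values are printed for 29 of the 70 list genes. Exon lengths and coordinates are from GENCODE M21 (mm10), and sequences before gene starts from RefSeq (GRCm38.p6), where all 9 members matched. Values were computed with scipy 1.17.1, numpy 2.4.6 and pandas 2.3.3 in Python 3.11.15 and drawn with matplotlib 3.10.9. Alternatives were a threshold of 0.01, centring on the median gene, no filter on low means, a mean of at least 100 and a log2 size of at least 0.5.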

Additional observations from a re-analysis of the deposited data

Results flagged for a closer look

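Of the 9 decay factors 0 passed the test of the difference between LSK and LinNeg as deposited (normal test on the authors' DESeq2 estimates, two-sided, adjusted over 15735 genes, with 2 at an unadjusted p under 0.05), and Smg8 passed with fold changes centred on the median gene (0.53, adjusted p = 0.0160). With centring on genes with a mean of at least 100 it did not (0.37, adjusted p = 0.123 from DESeq2 estimates). Of the 29 other pathway genes named, which were picked by adjusted p or nearness to the members, 8 passed, beside 31.9% of all genes tested. The LSK effect lay below the LinNeg effect for Mov10 (difference -1.21, adjusted p = 0.000122), Cnot6l (difference -1.05, adjusted p = 2.45e-05), Nbas (difference -0.73, adjusted p = 0.000887), Ttc37 (difference -0.53, adjusted p = 0.00906) and Snhg1 (difference -0.43, adjusted p = 0.0441). That of Snhg1 was lost with fold changes centred on the median gene (-0.32, adjusted p = 0.156). The LSK effect lay above for Gadd45a (difference 1.01, adjusted p = 0.00312), Patl1 (difference 0.47, adjusted p = 0.0225) and Cnot8 (difference 0.44, adjusted p = 0.0143). These values come from DESeq2 estimates of groups whose cell type markers also moved with the label, and the part of those markers was not tested. Population, the label BMT of the LSK samples and sex cannot be told apart in them.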

How the results depend on the processing

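Leaving out the filter on low means, or asking for a mean of at least 100, changed no call of a member. At a threshold of 0.01 the calls of members were 0 in LinNeg and 6 in LSK, and with a log2 size of at least 0.5 they were 0 in each. Centring on the median of all genes tested (0.16 in LinNeg, 0.04 in LSK) left 1 call in LinNeg, 0 higher and 1 lower against 2 and 1 as deposited, and 6 in LSK, 4 higher and 2 lower, and gave 1 call of a difference (Smg8) where there was 0. That centring took away the LinNeg calls of Upf1 (0.24, adjusted p = 0.193 from DESeq2 estimates) and Smg5 (0.22, adjusted p = 0.229 from DESeq2 estimates) and the LSK calls of Upf3a and Smg9. It turned the sign of uncalled values, in LinNeg of Smg8 (-0.083), Smg9 (-0.083), Edc4 (-0.0078), Nat9 (-0.098) and Ncbp2 (-0.092), and in LSK of Ttc37 (-0.029). The same held for the differences of Upf1 (0.034), Upf2 (0.11), Smg6 (0.077), Atf4 (0.076), Ncbp1 (0.089), Ruvbl2 (0.0079), Snhg3 (0.11) and Wdr61 (0.042), all with DESeq2 estimates and none past the threshold. Centring on genes with a mean of at least 100, chosen after seeing the data, left the 3 LinNeg calls (Upf1 0.42, Smg5 0.39, both higher, and Smg6), turned Upf2 in LinNeg (0.0085), Ttc37 in LSK (-0.018) and the difference of Cwc22 (-0.0010), and again took away the LSK calls of Upf3a and Smg9. The cause was not tested. No paired analysis was possible because the columns hold comparisons and carry no replicate number, and leaving out a library was not run for the same reason. Depth per library is unknown, and the standard errors set what could be called.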

Other observations

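Of the 9 decay factor genes 3 (33.3%) have an annotated transcript of the nonsense-mediated decay kind in GENCODE M21, namely Smg1, Smg5 and Smg6 with 1 each, beside 27.3% of 14285 protein-coding genes tested in both tables. Annotated transcripts with a retained intron exist for 5 (55.6%), namely Smg1 and Smg5 with 5 each, Smg9 with 4, Upf3a with 2 and Smg6 with 1, beside 56.5% of those genes. The members had a median of 22 merged exons and 5.47 kb of exon, against 10 and 4.43 kb. Counts per gene do not separate such transcripts from those that encode the protein.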
